A study of Mus musculus with 6 samples.

Results

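The 10 genes described here encode enzymes, and 1 partner protein, that hydroxylate and crosslink collagen. They are the prolyl 4-hydroxylase alpha subunits P4ha1, P4ha2 and P4ha3, the lysyl hydroxylases Plod1, Plod2 and Plod3, the lysyl oxidases Lox, Loxl2 and Loxl3, and Crtap, and they were chosen by name from the 17854 genes of the expression table. All 10 were present and all 10 passed the filter on low counts, as did 14289 of the 17854 genes. The table holds bulk RNA sequencing of sorted Tomato+ cells from the knee cartilage of male C57BL/6 mice, with 3 libraries in each of 2 groups. Tomato+ cells carry the R26tdTomato reporter, switched on for good by Cre under Prrx1, a gene of limb mesenchyme, so the mark stays with every descendant of a cell that once made Cre. The MSC-derived cells came from repaired cartilage of mice with knee osteoarthritis (KOA), induced by anterior cruciate ligament transection, that had been injected with Prrx1-lineage mesenchymal stromal cells of inguinal white fat. The endogenous cells came from the cartilage of Prrx1-Cre; R26tdTomato mice of the same age and sex, in which the mark arises in the animal itself. The groups thus differed in the origin of the marked cells, in the joint disease and in the injection at once, and these cannot be told apart. All 6 samples bear the label chondrocyte. The study's methods give as many mice as libraries.

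Collagen chains are modified in the endoplasmic reticulum before they fold into a triple helix. Prolyl 4-hydroxylase makes the 4-hydroxyproline that keeps the helix stable at body temperature, and lysyl hydroxylases make the hydroxylysine that carries sugars and later enters crosslinks. Outside the cell, copper-dependent lysyl oxidases turn lysine and hydroxylysine into reactive aldehydes, from which crosslinks between collagen molecules form. These bonds add to the strength of collagen fibres. The hydroxylases need iron, oxygen, 2-oxoglutarate and ascorbate.

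Total expected counts lay between 22060628 and 24881796 per library. The limit of detection, set at 3 counts, was 0.121 to 0.136 per 1000000 of these unscaled counts. Levels below are in CPM (counts per 1000000 counts of the TMM-scaled library), and every value given for the 10 genes was far above that limit. Endogenous replicate 1 stood apart, with 3449 genes at 0 counts against 1323 and 1375 in the other endogenous libraries, so results on the 10 genes and counts over lists are also given without it where a call changed. The label chondrocyte fitted the endogenous libraries better than the MSC-derived ones. Even so, in the endogenous libraries the osteoblast and osteocyte markers summed to a higher level than the chondrocyte markers. All 9 chondrocyte markers fell in the MSC-derived libraries, to a summed level of 435 to 447 TPM (transcripts per 1000000, a level per length) against 22956 to 24821 TPM, all 9 mesenchymal markers fell (2105 to 2134 against 35287 to 45034 TPM), and so did all 6 osteoblast and osteocyte markers tested (231 to 247 against 29765 to 49197 TPM). All 8 leukocyte, all 8 macrophage, all 8 neutrophil and all 6 erythroid markers tested rose. Of all genes tested, 30.3% were called lower and 31.3% higher at an adjusted p of 0.05 or less. The summed neutrophil markers reached 139485 to 148362 TPM against 7134 to 10413 TPM, the macrophage markers 10098 to 10366 against 39.9 to 57.0 TPM, the leukocyte markers 4157 to 4180 against 262 to 340.3 TPM, and the erythroid markers 23409 to 24672 against 5640 to 7684 TPM. Of 6 endothelial markers 4 rose (26.3 to 29.2 against 8.25 to 14.1 TPM), of 3 adipocyte markers tested 2 fell and 1 rose (454 to 493 against 330.3 to 355 TPM), and the 4 muscle markers tested did not pass the threshold (8.01 to 9.81 against 9.06 to 13.2 TPM). Without endogenous replicate 1 all 6 endothelial markers rose, all 7 osteoblast and osteocyte markers then tested fell, 3 of 4 adipocyte markers fell and 1 rose, and of 5 muscle markers 2 fell and 2 rose. The adipocyte marker Lep was at 0 in every MSC-derived library and no other marker in the table was at 0 throughout a group. These marker levels differed between the same groups that every result below compares. Their part in those results was not tested, and in bulk RNA fewer cells of a type and less RNA per cell cannot be told apart.

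The collagen-modifying enzymes were lower in the MSC-derived cells almost throughout. By edgeR's quasi-likelihood test 9 of the 10 genes fell, and Plod1 was the gene that did not pass the threshold. Across all genes tested 30.3% were called lower and 31.3% higher. The 9 genes all fell by at least 1 on the log2 scale, a size of fall met by 21.9% of all genes tested. The median log2 fold change of the 10 genes was -2.48, against 0.05 over all genes tested. In CPM the 3 MSC-derived libraries lay below the 3 endogenous libraries for the same 9 genes, a separation seen in 34.1% of all genes tested, with 38.2% parted the other way. Without endogenous replicate 1, all 10 genes were called lower, where the share over all genes was 38.6%. In the plot of CPM by library the groups are parted for every gene but Plod1.

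**Figure D1:**
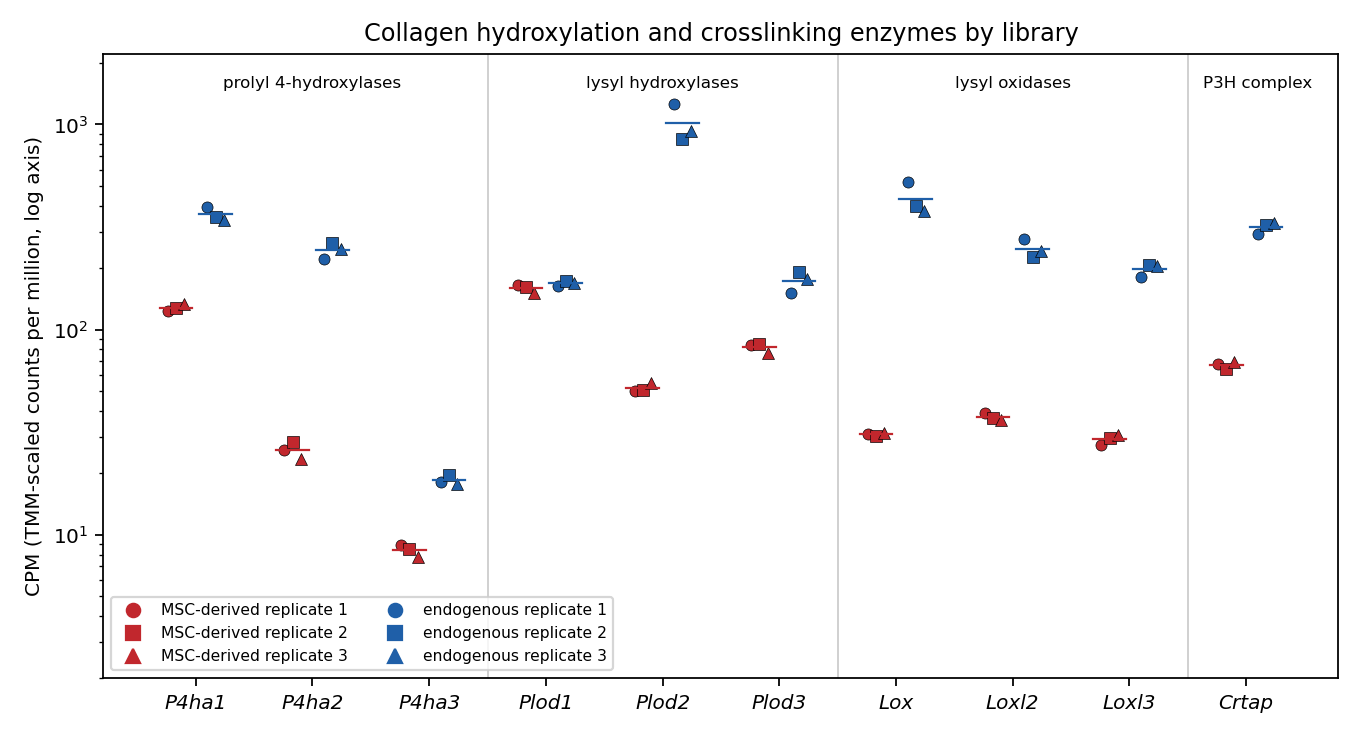
Level of each of the 10 genes in each library, in CPM scaled by TMM on a log axis, with MSC-derived libraries in red, endogenous libraries in blue, a marker shape for each replicate number and a line at each group mean. The 3 MSC-derived libraries lie below the 3 endogenous libraries for 9 genes, while for Plod1 they span 151 to 164 CPM and the endogenous libraries 162 to 173 CPM.

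Promoter sequences are shown for 4 genes with a matched promoter, to set side by side 2 members of each hydroxylase class whose changes differed in size. Plod2, which fell the most of the lysyl hydroxylases, had no matched promoter. Each is the run of 250 bases before the gene's start in RefSeq on build GRCm38.p6, written 5′ to 3′ on the strand of the gene, with capitals marking the letters ACGTG or GCGTG, the core of the hypoxia response element, on either strand.
P4ha1 promoter, chr10:59323046-59323295, plus strand: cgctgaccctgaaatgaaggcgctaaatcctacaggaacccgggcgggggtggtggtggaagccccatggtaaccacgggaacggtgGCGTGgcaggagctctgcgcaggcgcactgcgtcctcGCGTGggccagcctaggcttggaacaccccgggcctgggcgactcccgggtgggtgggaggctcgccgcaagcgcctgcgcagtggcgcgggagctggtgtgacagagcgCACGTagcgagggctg
P4ha2 promoter, chr11:54100674-54100923, plus strand: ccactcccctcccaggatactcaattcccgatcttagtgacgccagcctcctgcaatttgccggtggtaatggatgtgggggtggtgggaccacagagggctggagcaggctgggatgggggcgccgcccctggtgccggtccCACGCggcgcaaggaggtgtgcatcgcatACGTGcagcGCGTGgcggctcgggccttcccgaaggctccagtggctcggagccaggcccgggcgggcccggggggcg
Plod1 promoter, chr4:147936777-147937026, minus strand: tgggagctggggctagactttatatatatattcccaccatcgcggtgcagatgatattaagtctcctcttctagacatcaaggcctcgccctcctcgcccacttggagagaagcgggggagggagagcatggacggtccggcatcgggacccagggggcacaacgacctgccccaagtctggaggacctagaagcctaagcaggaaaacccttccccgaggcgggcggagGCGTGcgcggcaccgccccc
Plod3 promoter, chr5:136986769-136987018, plus strand: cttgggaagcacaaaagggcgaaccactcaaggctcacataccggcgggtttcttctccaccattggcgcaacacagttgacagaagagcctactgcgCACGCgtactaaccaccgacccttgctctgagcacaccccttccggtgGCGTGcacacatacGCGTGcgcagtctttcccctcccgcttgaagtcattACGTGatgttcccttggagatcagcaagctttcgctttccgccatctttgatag
RefSeq promoters were matched for 6 of the 10 genes, and 5 of the 6 held ACGTG or GCGTG on either strand, against 38.6% of the 32841 promoters of the same length in the table. ACGTG occurred in P4ha1, P4ha2 and Plod3 and in 16.6% of all promoters. GCGTG occurred in P4ha1, P4ha2, Plod1, Plod3 and Crtap and in 28.2% of all promoters, and every match was counted where motifs overlapped. The letters TATAAA were found in Plod1 and Crtap and in 12.4% of all promoters. The P4ha3 window held none of these motifs. P4ha1 and P4ha2 each had 1 match of ACGTG and 2 of GCGTG. A match of letters is a description of the window and does not show a binding site.

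P4ha1, P4ha2 and P4ha3 encode the alternative catalytic subunits of prolyl 4-hydroxylase, each of which pairs with protein disulphide isomerase, the product of P4hb. P4ha2 (NCBI gene 18452) stood at 25.9, 28.3 and 23.4 CPM in MSC-derived replicates 1 to 3 and at 222, 265 and 246 CPM in endogenous replicates 1 to 3. Every MSC-derived library was thus far below every endogenous one, and the gene fell by 3.24 on the log2 scale (SE 0.11, 95% interval -3.50 to -2.97, adjusted p = 3.58e-07 by edgeR), a level 9.43-fold lower. P4ha1 (NCBI gene 18451), the more widely expressed alpha subunit, stood at 123, 128 and 133 CPM in the MSC-derived libraries and at 397, 353 and 342 CPM in the endogenous ones. The groups did not overlap, endogenous replicate 1 was the highest, and P4ha1 fell by 1.51 (SE 0.08, 95% interval -1.70 to -1.32, adjusted p = 3.11e-06 by edgeR). P4ha3 (NCBI gene 320452) was the least abundant of the 10 genes in both groups, at 8.95, 8.49 and 7.78 CPM against 18.0, 19.6 and 17.6 CPM. It too fell without overlap, by 1.13 (SE 0.15, 95% interval -1.48 to -0.78, adjusted p = 0.000388 by edgeR).

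Levels of different genes can be compared only per length, for which TPM was used. In TPM the MSC-derived and endogenous means were 42.6 ± 1.35 and 165.8 ± 27.0 for P4ha1, 15.9 ± 1.60 and 203 ± 6.76 for P4ha2, and 5.03 ± 0.38 and 14.8 ± 1.24 for P4ha3 (SD, n = 3 per group). The 3 alpha subunits together came to 63.5 ± 1.54 TPM in the MSC-derived cells, 16.6% of the 383 ± 28.8 TPM of the endogenous cells. On mean TPM the median log2 ratio of all genes tested was -0.38, so falls in TPM, here and for the classes below, read larger than in CPM. P4ha1 was at 25.7% of its endogenous level in TPM and at 35.1% in CPM. The make-up of the class differed as well. P4ha2 made up 48.7%, 55.7% and 54.8% of the class in the endogenous libraries and 25.5%, 26.7% and 22.7% in the MSC-derived ones. P4ha1 made up 43.1% ± 3.84 in the endogenous and 67.1% ± 2.39 in the MSC-derived cells, and P4ha3 3.86% ± 0.0889 and 7.93% ± 0.66 (SD, n = 3). Each of these 3 shares was parted without overlap, at the smallest exact permutation p that 3 against 3 libraries allow (two-sided p = 0.10, adjusted p = 0.122 over 11 shares), so that no share could pass 0.05. From expected counts, which are not per length, the P4ha3 share differed by 2.26 points in place of 4.07 points.

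Pairs of genes of a class were compared by the difference of their log2(TPM + 0.1) in each library, over 9 pairs. The P4ha1 to P4ha2 difference was 1.72 higher in the MSC-derived cells (SE 0.17), and the P4ha2 to P4ha3 difference fell by 2.14 (SE 0.10), both without overlap between the groups. The P4ha1 to P4ha3 difference fell by 0.41 (SE 0.12), also without overlap. The exact two-sided permutation p was 0.10 for each, the smallest possible, and 0.113 when adjusted over the 9 pairs.

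**Figure D2:**
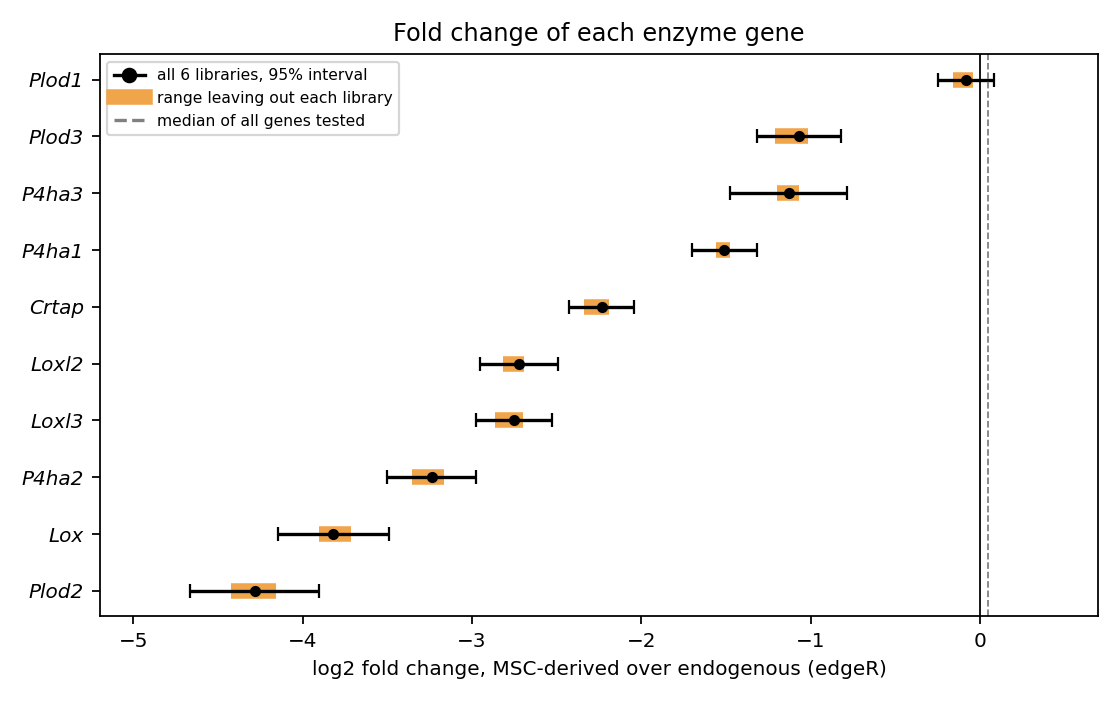
Log2 fold change of each gene, MSC-derived over endogenous, from edgeR, with the 95% interval as a black line, the range over the 6 fits that leave out 1 library as an orange bar, and the median of all genes tested as a dashed line. Plod2 lies lowest at -4.28, followed by Lox at -3.82 and P4ha2 at -3.24, and the interval of Plod1 alone spans 0.

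Lysyl hydroxylases act on different lysines. Plod1 mainly serves those within the triple helix. Plod2 serves those of the telopeptides at the ends of the helix, whose hydroxylation leads to the mature pyridinoline type of crosslink. Plod3 also transfers glucose onto hydroxylysine that carries galactose. Plod2 (NCBI gene 26432) had the lowest fold change of the 10 genes, from 1250.2, 849 and 931 CPM in the endogenous libraries to 50.1, 50.8 and 54.7 CPM in the MSC-derived ones. It fell by 4.28 on the log2 scale (SE 0.16, 95% interval -4.66 to -3.90, adjusted p = 5.31e-07 by edgeR), a level 19.5-fold lower. Endogenous replicate 1 was the highest of all, 0.49 above the mean of the other 2 endogenous libraries in log2 CPM, and without it the fold change was -4.16.

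Plod3 (NCBI gene 26433) stood at 84.1, 85.2 and 77.0 CPM in the MSC-derived libraries and at 150.0, 190.4 and 176 CPM in the endogenous ones. The groups did not overlap, with endogenous replicate 1 the lowest of its group, and Plod3 fell by 1.07 (SE 0.11, 95% interval -1.32 to -0.82, adjusted p = 8.41e-05 by edgeR). Plod1 (NCBI gene 18822) behaved otherwise. It stood at 164, 160.3 and 151 CPM in the MSC-derived libraries and at 162, 173 and 168 CPM in the endogenous ones, so that the groups overlapped, and its log2 fold change was -0.08 (SE 0.07, 95% interval -0.25 to 0.08, adjusted p = 0.345 by edgeR). The interval allows a fall of up to 0.25 or a rise of up to 0.08. Without endogenous replicate 1 the value was -0.16 and passed the threshold (adjusted p = 0.00823 by edgeR), and with total counts as the only scaling it was 0.035.

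The unit also mattered for Plod1. In FPKM its groups overlapped, at 53.8 ± 2.48 and 52.5 ± 1.38, while in TPM all 3 MSC-derived libraries were lower, at 66.4 ± 3.26 against 95.5 ± 4.87 (SD, n = 3). FPKM summed over genes to 808701 to 813572 in the MSC-derived libraries and to 504768 to 573603 in the endogenous ones, a difference of scale that TPM removes, and on mean TPM the median log2 ratio of all genes tested was -0.38. Relative to the median of all genes, Plod1 was at -0.13 in CPM and -0.14 in TPM.

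The leading gene of the class was Plod2 in the endogenous cells and Plod1 in the MSC-derived cells. Plod2 made up 77.8%, 67.0% and 70.1% of the summed TPM of the 3 lysyl hydroxylases in the endogenous libraries and 14.8%, 15.1% and 17.1% in the MSC-derived ones. Plod1 made up 11.6%, 15.8% and 14.7% in the endogenous libraries and 56.5%, 55.6% and 55.1% in the MSC-derived ones. Plod3 made up 14.3% ± 3.37 and 28.6% ± 0.748 (SD, n = 3), in the same order. None of these shares overlapped between groups (exact permutation p = 0.10 for each, adjusted p = 0.122), and they rested on class sums of 119 ± 4.47 TPM in the MSC-derived cells and 697 ± 151.7 TPM in the endogenous cells, a level of 17.1%. The Plod1 to Plod2 difference moved by 4.19 (SE 0.21), the Plod2 to Plod3 difference fell by 3.21 (SE 0.28), and the Plod1 to Plod3 difference moved by 0.98 (SE 0.08). All 3 were without overlap at the smallest exact permutation p of 0.10. Each kept its direction without endogenous replicate 1.

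**Figure D3:**
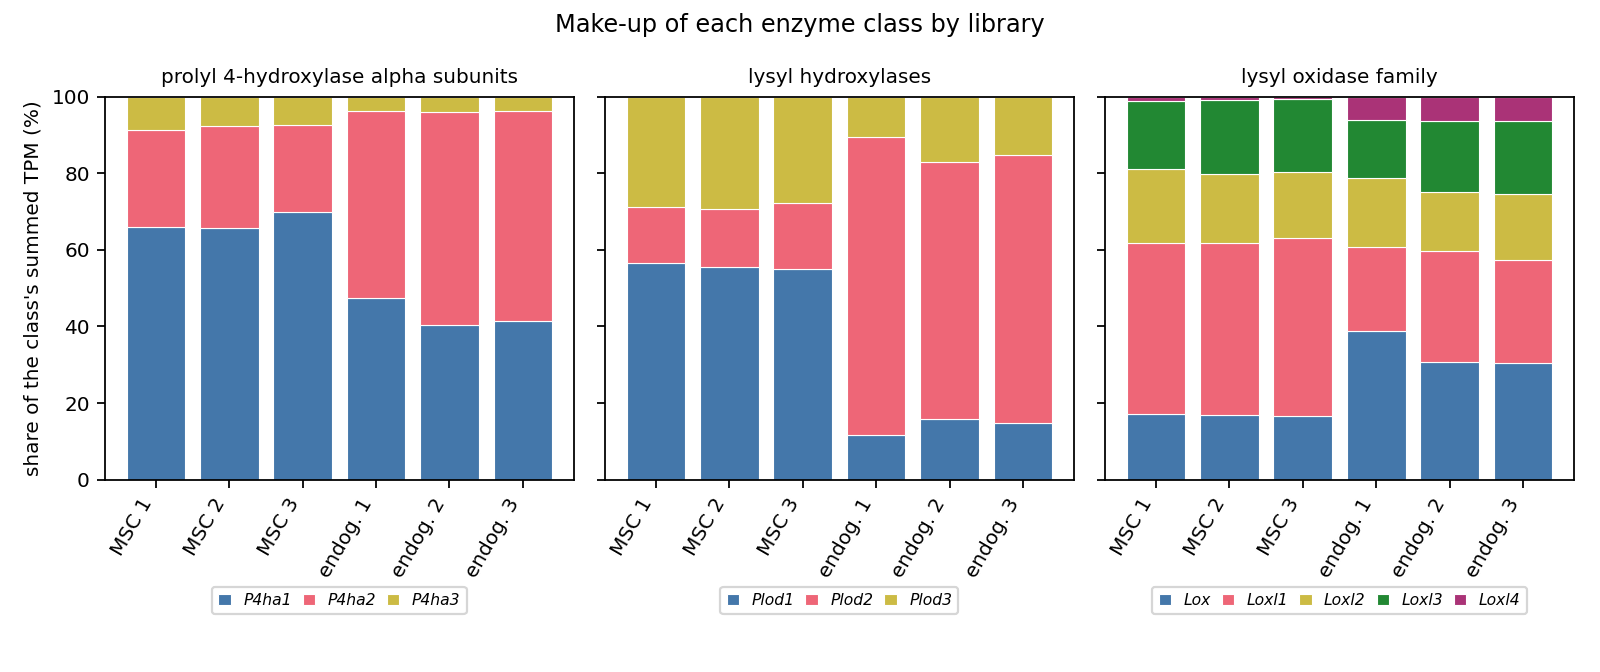
Share of each gene in the summed TPM of its enzyme class, in percent, for each of the 6 libraries, with MSC-derived libraries on the left and endogenous libraries on the right of each panel. Plod2 is the largest part of its class in every endogenous library (67.0% or more) and the smallest in every MSC-derived library (17.1% or less), where Plod1 is the largest.

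The lysyl oxidases act outside the cell and need copper. Lox (NCBI gene 16948), the founding member of the family, stood at 31.0, 30.2 and 31.2 CPM in the MSC-derived libraries and at 524, 401 and 379 CPM in the endogenous ones. It fell by 3.82 (SE 0.14, 95% interval -4.15 to -3.49, adjusted p = 4.67e-07 by edgeR), a level 14.1-fold lower. Endogenous replicate 1 was 0.43 above the other 2 in log2 CPM, and the fold change without it was -3.72.

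Loxl2 (NCBI gene 94352) and Loxl3 (NCBI gene 16950) are relatives of Lox with scavenger receptor domains ahead of the catalytic part. Loxl2 stood at 39.3, 36.9 and 36.3 CPM against 275, 227 and 241 CPM and fell by 2.72 (SE 0.10, 95% interval -2.96 to -2.49, adjusted p = 4.43e-07 by edgeR). Loxl3 stood at 27.3, 29.7 and 30.6 CPM against 179, 207 and 203 CPM and fell by 2.75 (SE 0.10, 95% interval -2.97 to -2.53, adjusted p = 3.71e-07 by edgeR). For both genes the groups were far apart, and the folds were 6.60 and 6.73.

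In TPM the means were 8.63 ± 0.105 and 171 ± 48.2 for Lox, 9.26 ± 0.429 and 86.0 ± 16.0 for Loxl2, and 9.65 ± 0.527 and 88.1 ± 0.464 for Loxl3 (SD, n = 3), MSC-derived first. Lox thus led Loxl2 and Loxl3 in the endogenous cells and lay below both in the MSC-derived cells. The Lox to Loxl2 difference fell by 1.07 (SE 0.09) and the Lox to Loxl3 difference fell by 1.08 (SE 0.23), without overlap at the smallest exact permutation p of 0.10. The Loxl2 to Loxl3 difference changed by -0.01 (SE 0.17, exact permutation p = 1), with overlapping groups.

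With Loxl1 and Loxl4, the other genes of the family, the class summed to 51.4 ± 0.688 TPM in the MSC-derived cells, 10.1% of the 506 ± 67.0 TPM of the endogenous cells. Lox made up 33.4% ± 4.76 of it in the endogenous cells and 16.8% ± 0.291 in the MSC-derived cells, while Loxl1 made up 25.8% ± 3.55 and 45.4% ± 0.984 (SD, n = 3), both without overlap. The shares of Loxl2 (16.9% ± 1.23 and 18.0% ± 1.00) and Loxl3 (17.6% ± 2.13 and 18.8% ± 0.916) overlapped between the groups, with exact permutation p-values of 0.40 and 0.50. From expected counts, which are not per length, the MSC-derived share of Loxl2 was higher by 3.45 points, against 1.12 points from TPM, and parted from the endogenous share (exact permutation p = 0.10), and that of Loxl3 was higher by 2.28 points against 1.19 points (exact permutation p = 0.20). Loxl4 went from 6.27% ± 0.103 to 0.911% ± 0.378 without overlap.

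Crtap (NCBI gene 56693) encodes the partner without catalytic activity in the prolyl 3-hydroxylase complex, which also holds the products of P3h1 and Ppib. It stood at 67.9, 64.1 and 69.7 CPM in the MSC-derived libraries and at 293, 324 and 332 CPM in the endogenous ones. The groups did not overlap, and Crtap fell by 2.23 (SE 0.08, 95% interval -2.43 to -2.04, adjusted p = 4.48e-07 by edgeR), a level 4.71-fold lower. In TPM it went from 360.4 ± 7.22 to 56.5 ± 2.12 (SD, n = 3), or 15.7% of the endogenous level against 21.2% in CPM.

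The order of the levels in TPM differed between the groups. In the endogenous cells Plod2 (505 ± 151.0) was the highest, Crtap followed, and then came P4ha2, Lox and P4ha1, of which P4ha2 overlapped with Lox and Lox with P4ha1. Plod3 (96.7 ± 4.97) and Plod1 could not be ordered beyond their spread, nor could Loxl3 and Loxl2, and P4ha3 was last. In the MSC-derived cells Plod1 was the highest, followed by Crtap, P4ha1, Plod3 (34.1 ± 2.09), Plod2 (18.6 ± 0.792) and P4ha2, and no neighbours in this run overlapped. Loxl3 and Loxl2 overlapped, and Lox and P4ha3 closed the order. From the endogenous to the MSC-derived cells Plod2 thus went from rank 1 to rank 5 and Plod1 from rank 7 to rank 1.

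Some of these genes overlap the span of other genes, on either strand and with introns included. The sources do not say whether counting used strand. In RefSeq Plod2 overlaps B430319G15Rik, Plod3 overlaps Znhit1 and Mir702, Loxl2 overlaps Gm27177 and Mir6950, Loxl3 overlaps Htra2 and Mir7040, and Crtap overlaps 4930520O04Rik. Whether the transcripts share sequence was not examined, and any reads of such neighbours cannot be told apart here.

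Genes that act with the 10 enzymes were lower too. Of 8 partners and relatives all 8 fell (median log2 fold change -2.85), and without endogenous replicate 1 the count was also 8. Over all genes tested 30.3% were called lower (median 0.05), and without endogenous replicate 1 38.6% were. The smallest fall was that of Ppib, a proline isomerase, at -1.14, and P4hb, the shared beta subunit, was at -1.39 (adjusted p = 1.67e-06 by edgeR), close to P4ha1 and far from P4ha2. P3h1, the catalytic partner of Crtap, was at -3.68 (SE 0.09, adjusted p = 1.14e-07 by edgeR). Loxl1, which is tied to elastic fibres, was at -2.03 and Loxl4 at -5.61.

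The next steps of collagen making showed a mixed but mostly lower picture, while of all genes tested 30.3% were called lower and 31.3% higher. Of 10 genes of folding, glycosylation and export 8 fell and 2 rose (median -2.90). Sparc, a collagen-binding matrix protein, fell by 4.66, the most in this list, and Serpinh1, the collagen chaperone HSP47, fell by 3.84 (adjusted p = 2.03e-07 by edgeR). The genes that rose were Colgalt1, which adds galactose to hydroxylysine, at 0.60 (SE 0.08, adjusted p = 0.000402 by edgeR), and Tmem38b, a channel of the endoplasmic reticulum, at 0.60 (SE 0.13, adjusted p = 0.00439 by edgeR). Of 11 genes of propeptide cleavage 10 fell (median -2.84), with Pcolce2, an enhancer of the C-proteinase, the lowest at -4.35, and Tll2, present at 15 to 32 counts, was not called (-0.11, adjusted p = 0.866 by edgeR).

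Of 6 genes that supply cofactors 2 fell, 2 rose and 2 were not called (median -0.34), numbers near the shares of all genes tested that were called lower (30.3%) and higher (31.3%), so the count says nothing particular about this list. Atox1, the copper chaperone, rose by 1.33 (SE 0.14, adjusted p = 9.79e-05 by edgeR) and Atp7a, the pump that loads copper into secreted enzymes including lysyl oxidases, by 0.81 (SE 0.16, adjusted p = 0.00365 by edgeR). Slc2a1, a glucose transporter that also carries oxidised ascorbate, fell by 1.40, the most in this list. Of 10 other dioxygenases that use 2-oxoglutarate 5 fell, 1 rose and 4 were not called (median -0.36), beside the same 30.3% and 31.3% of all genes. In that list P4htm, a transmembrane prolyl 4-hydroxylase, was the lowest at -3.32 and Phyh, of peroxisomal fatty acid breakdown, the highest at 0.89. Bbox1 did not pass the filter, at 0 to 3 counts against 9 to 12. Without endogenous replicate 1 these lists had 3 of 6 and 6 of 11 genes called lower, beside 38.6% of all genes then tested.

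The collagen chains, the substrates of these enzymes, had lower medians, a difference between lists that was not tested. All 11 fibril-forming collagen chains fell, with a median of -5.33, and all 9 network-forming and basement membrane chains, with a median of -3.52. Over all genes tested 30.3% were called lower, and the median was 0.05. Col2a1, the main chain of cartilage, was at -6.30, Col1a1, the main chain of bone and tendon, at -5.48, and Col3a1 at -1.69, while Col11a1 was the lowest at -6.87 and Col5a3 the least changed of the fibril-forming chains at -0.97. Col10a1, of hypertrophic cartilage, was the lowest of the network-forming chains at -5.83. In the plot of the lists the median of the 10 enzymes lies between those of the fibril-forming chains and of the cofactor genes, while single genes of the lists overlap.

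**Figure D4:**
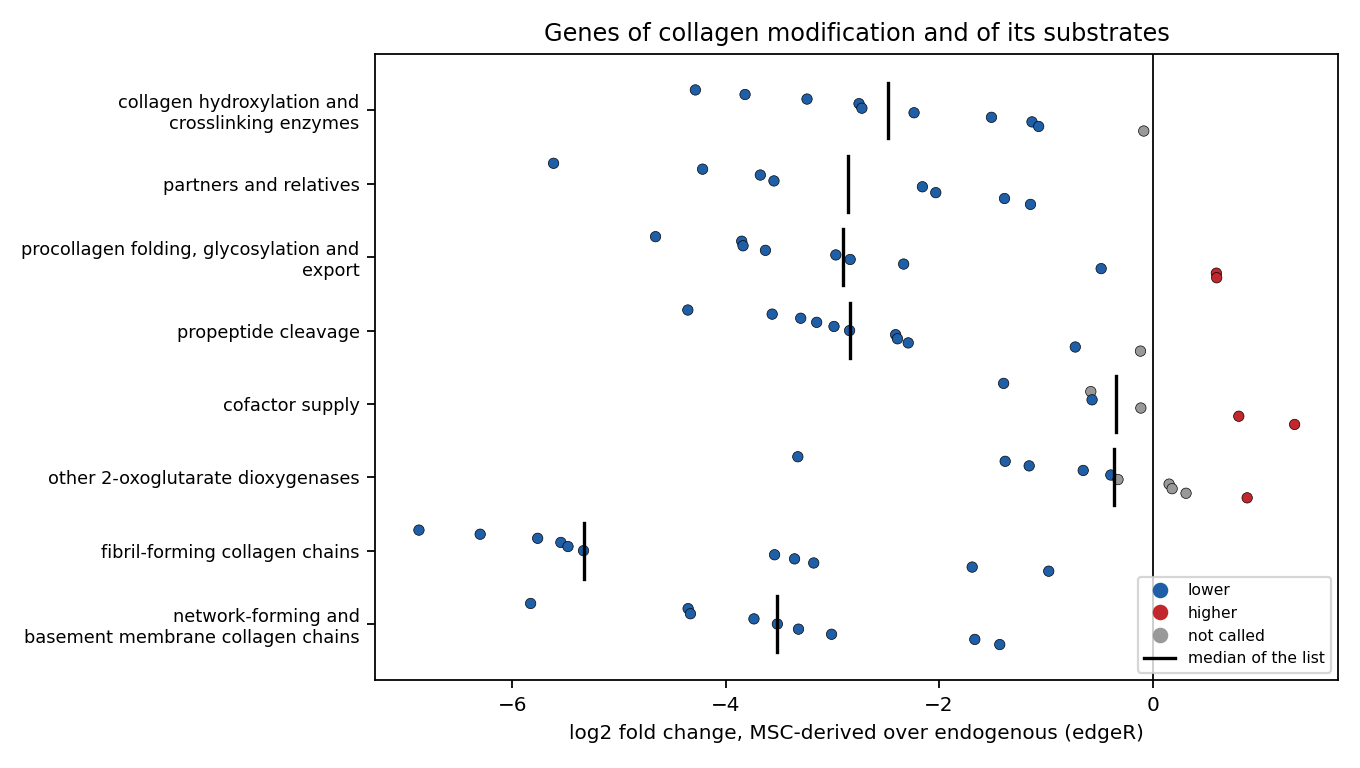
Log2 fold change of each gene tested in the enzyme set and in 7 further lists, MSC-derived over endogenous, from edgeR, with blue for lower, red for higher and grey for not called, and a black bar at each median. The enzymes have a median of -2.48, the fibril-forming chains -5.33 and the cofactor genes -0.34.

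Over the 5335 genes whose mean log2 CPM reached 5, the profiles nearest to the mean profile of the 10 enzymes over the 6 libraries were those of Erf (root mean square distance 0.0401 in log2 CPM), 4930523C07Rik (0.0525), Dcn (0.0537), Ikbip (0.0612) and Cavin1 (0.0625). Of the enzymes themselves Crtap lay nearest to their mean (0.0845), and Plod1 (1.10) and Plod2 (1.01) lay farthest. The likeness is a description over 6 libraries that share 1 contrast.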

How the data were processed

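RNA of sorted Tomato+ cells, 3 libraries per group, was sequenced by the authors after a TruSeq preparation. Reads were filtered (SOAPnuke), aligned (HISAT2, Bowtie2) and quantified per gene (RSEM) by the authors. The submitters' processing notes name build mm9, Bowtie2 2.2.5 and RSEM 1.2.12, while the study's methods name other tool versions, and which were used is not settled here. Per gene the authors deposited the expected count (not normalized), FPKM (per length and library) and TPM (the same, summing to 1000000). A deposited signal per gene, a scaled count, entered no result, nor did 8 columns of group means.

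Rounding the expected counts to integers altered 20.6% of values. The test was edgeR 4.0.16 (R 4.3.3) with TMM, filterByExpr, glmQLFit and glmQLFTest. P-values were adjusted over the 14289 genes tested by Benjamini-Hochberg, with a threshold of 0.05. The study itself used DESeq2, which was run as an alternative. CPM uses TMM-scaled totals. Shares and differences between genes were computed from TPM, with a pseudocount of 0.1 for differences, and tested by exact two-sided permutation over the 6 libraries. The fit was first tested on simulated data, in which DESeq2 made more false calls than edgeR. Those data were drawn from edgeR's own estimates of spread, with few changed genes and no library standing apart. They differ in this from the real data and do not rank the tools here.

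The 10 genes and all lists were chosen with earlier results of these data known. Named are the 10 genes and, of each list, the largest change in each direction, with P4hb, P3h1, Loxl1, Loxl4, Serpinh1, Colgalt1, Col1a1, Col2a1 and Col3a1. Ppib, Tmem38b, Tll2, Atp7a, Bbox1 and Col5a3 were named after their values were seen. A shared replicate number does not mean a shared mouse. Alternatives were DESeq2 1.42.0, other scalings and filters, limma 3.58.1 on log2 FPKM with a pseudocount of 1 or 0.1, stricter thresholds, a block on replicate number and each library left out in turn. Promoters come from RefSeq on GRCm38.p6, another build than that of the counts, and were used for sequence alone.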

Additional observations from a re-analysis of the deposited data

How the results depend on the processing

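All 9 genes called lower stayed lower and called under DESeq2, the other scalings, filters and units, the block and each left-out library (largest adjusted p 0.00371, for P4ha3), and at an adjusted p of 0.001. Plod1 changed sign with total counts only (0.035, adjusted p = 0.686 by edgeR) and by limma on log2 FPKM with a pseudocount of 1 (0.036, adjusted p = 0.679), of 0.1 (0.036, adjusted p = 0.669) and of 1 without a filter (0.036, adjusted p = 0.649). Those settings moved the median of all genes from 0.05 to 0.16, 0.18, 0.22 and 0.02. Relative to that median Plod1 lay between -0.18 and 0.01 over all settings. With 1 library left out it ranged from -0.16 to -0.040 and was called only without endogenous replicate 1 (-0.16). At an adjusted p of 0.001, 2380 genes were lower and 2134 higher, with 1 cofactor gene and 2 other dioxygenases lower. At a log2 fold change of 1 or more in size, 2756 genes were higher, with 1 cofactor gene and 3 other dioxygenases lower. By limma with either pseudocount and the filter on mean FPKM, 5 network-forming and basement membrane chains were lower. By limma with a pseudocount of 1 and no filter, 9 were lower, so the smaller number came with the filter. With 1 library left out the Loxl3 share differed by -0.0234 to 1.95 points and the Loxl2 to Loxl3 difference by -0.11 to 0.14, the lowest share and the highest difference both without endogenous replicate 1. Apart from that filter, the causes were not tested. Same-numbered libraries did not deviate together (correlations of 0.0129, 0.0022 and 0.0178), so they share only a number, and with the replicate block 9 of the 10 genes were again lower, as were 3920 genes in all. The lowest count of the 10 genes in any library was 178, so the floor of 3 counts did not limit them.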

Other observations

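Set against the fibril-forming collagens within each library, the enzymes stood higher in the MSC-derived cells, a comparison chosen after the values were seen. Per 1000 TPM of the 11 fibril-forming chains the 10 genes came to 284 ± 6.40 TPM in the MSC-derived cells and 39.7 ± 1.53 TPM in the endogenous cells (SD, n = 3), which is 7.16-fold higher. The ratio was 7.90-fold higher for the prolyl 4-hydroxylase alpha subunits, 8.24-fold for the lysyl hydroxylases, 7.45-fold for Crtap and 4.86-fold for the lysyl oxidase family, each without overlap between the groups at the smallest exact two-sided permutation p of 0.10. The summed TPM of the chains was 939 ± 9.31 against 44969 ± 5008, or 0.0209 of the endogenous level. Any gene that fell by less than the chains, or did not fall, therefore stands higher on this ratio. The ratio was not computed for all genes, so it shows nothing particular to the enzymes.

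Set against 6 mesenchymal markers that are not collagens (Pdgfra, Pdgfrb, Prrx1, Dcn, Lum and Thy1, also chosen after the values were seen), whose median log2 fold change was -2.21, the 10 genes parted in both directions. The difference from the mean log2 CPM of these markers was higher in the MSC-derived cells for Plod1 (by 2.15, SE 0.09), Plod3 (1.17, SE 0.17), P4ha3 (1.11, SE 0.10) and P4ha1 (0.72, SE 0.04). It fell by 2.03 for Plod2 (SE 0.12), by 1.57 for Lox (SE 0.08), by 1.00 for P4ha2 (SE 0.15), by 0.51 for Loxl3 (SE 0.14) and by 0.49 for Loxl2 (SE 0.05). These 9 differences were without overlap (exact permutation p = 0.10, adjusted p = 0.111 over 10 genes). Because the markers fell, a gene of unchanged level stands higher on this scale, as did Plod1 with its log2 fold change of -0.08. The share of all genes that part on this scale was not computed. In plain CPM 34.1% of all genes tested parted lower and 38.2% higher. For Crtap the change was -0.0012 (SE 0.13), with overlapping groups.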
